A study of Homo sapiens with 12 samples.

Results

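The unfolded protein response is the programme by which cells adjust the endoplasmic reticulum (ER) when unfolded proteins build up in it. Its ATF6 and IRE1 branches were represented here by 10 genes, chosen by name and without the genes of the ATF4 branch: the transcription factors XBP1 and ATF6, the chaperones HSPA5, HSP90B1, DNAJB9 and CALR, the folding enzyme PDIA4, and the degradation factors HERPUD1, EDEM1 and SEL1L. All 10 were among the 11963 genes measured. They had 19 probe sets that named 1 gene alone, and each gene was read from its brightest one. A further 2 probe sets named HSP90B1 together with a microRNA gene and were not used, so HSP90B1 was read from a probe set of the _x_at type, which may bind other transcripts too.

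RNA came from RCC4, a human clear cell renal carcinoma line without functional VHL, the protein that brings HIF alpha subunits to a ubiquitin ligase for destruction. The 4 groups of 3 arrays were VHL-reconstituted cells in cystine-deprived DMEM (VHL deprived), VHL-reconstituted cells in full DMEM (VHL control), Vec cells in cystine-deprived DMEM (Vec deprived) and Vec cells in full DMEM (Vec control), each for 6 h. Vec is taken to be the vector control line, and the labels do not say whether either line is a clone or a pool, nor which promoter drives VHL. Serum was at 10% throughout, but the labels call it dialysed for the deprived medium alone, so the loss of cystine and a change of serum cannot be told apart. The labels call the arrays biological replicates without saying that each had its own culture, so p-values measure the spread between these arrays, which may be partly technical.

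Values are log2 expression values as deposited, so a difference of 1 is a doubling. Array medians ran from 7.12 to 7.18, and arrays of the same group correlated at 0.998 to 0.999 over all probe sets. Of 8 measured genes listed as kidney epithelial markers, 7 lay above the array median on all 12 arrays and MME did so on 6. The 7 were PAX8, PAX2, KRT8, KRT18, KRT19, VIM and CDH2. VIM and CDH2 are not specific to kidney epithelium, and the others were not checked for being specific to it. The 3 blood and 4 endothelial markers lay below the median on all 12. The dim VHL probe set averaged 5.94 ± 0.01 in VHL deprived, 5.99 ± 0.03 in VHL control, 5.99 ± 0.11 in Vec deprived and 5.85 ± 0.04 in Vec control cells (SD, n = 3 each). It did not pass the test between the lines in either medium (limma adjusted p = 0.475 deprived and 0.0532 control), and its position in the transcript is not known here, so it does not check the labels. Values are per amount of labelled RNA, so a change in RNA per cell cannot be told apart from a change in a transcript's share.

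By way of background, IRE1 is an ER membrane sensor that splices XBP1 mRNA, and the spliced form encodes an active transcription factor. ATF6 is itself an ER membrane protein that moves to the Golgi under stress, where proteases free its transcription factor part. Both factors switch on chaperones, folding enzymes and the machinery that carries misfolded proteins out of the ER for destruction. The arrays give transcript levels only: XBP1 splicing and ATF6 cleavage were not measured.

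The DNA elements of this response are shown first, because the genes that carry them did not move alike. The ER stress response element (ERSE, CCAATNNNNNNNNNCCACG), bound by ATF6 with the CCAAT-binding factor NF-Y, was searched on both strands of windows from 250 bases before to 50 bases after each annotated start. It was found in the windows of 4 of the 10 genes, XBP1, HSPA5, HSP90B1 (on both strands) and CALR, against 0.114% of 14058 windows of measured genes. The related ERSE-II, in which ATTGG and CCACG stand 1 base apart, was found for HERPUD1, against 0.0996% of those windows. HERPUD1 also held the CARE sequence (TGATGNAA, an element bound by ATF4 with a partner), which 2.45% of the windows hold. The core of the XBP1 and ATF6 element UPRE (TGACGTGG) was found for none of the 10 genes and in 0.882% of the windows. A match is a description of letters and not a shown binding site, and these genes are textbook members of the response, several of them used to define the elements. RefSeq sequences of the 250 bases before the start (GRCh38.p14, 5′ to 3′ on the strand of the gene) follow for the 5 genes with an ERSE or ERSE-II, with the matches in capitals. They lie at chr22:28800570-28800819 (minus strand) for XBP1, chr9:125241344-125241593 (minus) for HSPA5, chr12:103930160-103930409 (plus) for HSP90B1, chr19:12938359-12938608 (plus) for CALR and chr16:56931892-56932141 (plus) for HERPUD1. In HERPUD1 the first capitals are the CARE match, on the opposite strand, and the second the ERSE-II.
XBP1: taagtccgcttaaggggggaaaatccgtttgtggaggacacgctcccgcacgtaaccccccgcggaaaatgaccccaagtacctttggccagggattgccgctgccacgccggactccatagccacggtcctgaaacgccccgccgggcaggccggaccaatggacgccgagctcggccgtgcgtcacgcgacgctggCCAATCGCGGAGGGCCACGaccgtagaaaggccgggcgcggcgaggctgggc
HSPA5: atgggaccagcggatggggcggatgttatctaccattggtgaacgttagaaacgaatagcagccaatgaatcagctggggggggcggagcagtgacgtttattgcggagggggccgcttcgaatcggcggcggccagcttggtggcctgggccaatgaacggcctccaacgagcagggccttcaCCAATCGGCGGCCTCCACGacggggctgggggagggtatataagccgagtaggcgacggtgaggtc
HSP90B1: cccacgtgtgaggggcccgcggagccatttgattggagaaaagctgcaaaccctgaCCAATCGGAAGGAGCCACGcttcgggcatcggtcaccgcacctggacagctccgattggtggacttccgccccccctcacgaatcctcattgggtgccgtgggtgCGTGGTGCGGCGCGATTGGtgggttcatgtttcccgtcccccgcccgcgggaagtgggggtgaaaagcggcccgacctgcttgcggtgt
CALR: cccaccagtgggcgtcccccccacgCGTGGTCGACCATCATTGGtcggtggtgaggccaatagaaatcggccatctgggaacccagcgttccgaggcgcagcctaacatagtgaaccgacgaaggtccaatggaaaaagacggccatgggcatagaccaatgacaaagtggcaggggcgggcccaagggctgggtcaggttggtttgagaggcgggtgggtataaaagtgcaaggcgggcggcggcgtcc
HERPUD1: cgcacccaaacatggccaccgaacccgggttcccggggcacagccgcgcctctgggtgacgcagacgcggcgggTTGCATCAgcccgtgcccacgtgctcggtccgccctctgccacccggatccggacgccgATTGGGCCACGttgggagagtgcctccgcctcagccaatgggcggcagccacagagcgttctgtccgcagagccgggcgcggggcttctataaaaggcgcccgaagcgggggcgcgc

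**Figure D1:**
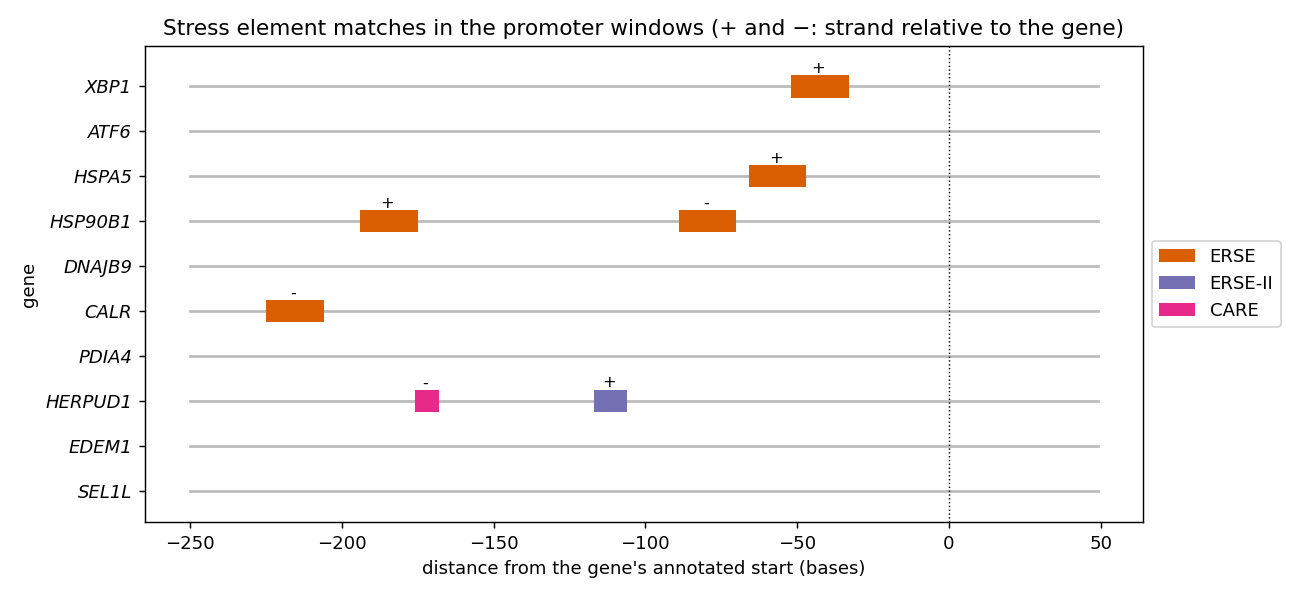
Positions of element matches in the promoter windows of the 10 genes, in bases from the annotated start (dotted line), with the strand of each match relative to the gene above its bar. ERSE matches lie in the windows of XBP1, HSPA5, HSP90B1 and CALR, and the HERPUD1 window holds an ERSE-II and a CARE match, while the windows of the other 5 genes hold no match to these elements.

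Deprivation raised XBP1 in both lines without a called rise of the ER chaperones among the 10 genes. In VHL cells 2 of 10 genes were called, both higher: XBP1, 1.54-fold, and HERPUD1, 1.29-fold. In Vec cells XBP1 rose 1.79-fold and DNAJB9 fell to 0.822 of its control level. HSPA5, HSP90B1, CALR and PDIA4, the main chaperones and folding enzymes of the set, gave log2 differences between -0.10 and 0.00 in both lines. A gene was called when its limma adjusted p, by the Benjamini-Hochberg method over all 11963 genes, was under 0.05. This rule called 11.6% of all genes in VHL cells, with 6.16% higher and 5.48% lower, and 4.18% in Vec cells, 2.11% higher and 2.06% lower. With 10 genes, 2 calls in each line are a small number to set against these shares. The median log2 difference of the 10 genes was -0.07 in VHL cells and 0.01 in Vec cells, beside 0.01 over all genes in each line.

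XBP1 read 9.78, 10.01 and 10.05 on the VHL deprived arrays and 9.37, 9.38 and 9.21 on the VHL control arrays. On the Vec deprived arrays it read 10.03, 10.07 and 10.15, and on the Vec control arrays 9.15, 9.33 and 9.26. All 6 deprived arrays were above all 6 control arrays, and VHL deprived replicate 1 was the lowest of the deprived ones. The log2 difference was 0.62 ± 0.08 in VHL cells (SE, n = 3 per group, limma adjusted p = 2.47e-04) and 0.84 ± 0.08 in Vec cells (limma adjusted p = 3.52e-05). The rise was 0.22 ± 0.11 smaller in VHL cells, a difference that was not called (95% interval of VHL minus Vec from -0.45 to 0.02, limma adjusted p = 0.534). The lines did not differ by the test in XBP1 level either, with VHL minus Vec at -0.14 ± 0.08 in deprived medium (limma adjusted p = 0.159) and 0.08 ± 0.08 in control medium (0.468). The array has 1 XBP1 probe set, so spliced and unspliced forms were not read apart.

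ATF6, the sensor and transcription factor of the other branch, was not called between the media but differed between the lines. It read 9.06, 9.06 and 9.22 in VHL deprived, 9.14, 9.16 and 9.26 in VHL control, 8.69, 8.78 and 8.65 in Vec deprived and 8.64, 8.66 and 8.66 in Vec control cells. Every array of VHL cells was above every array of Vec cells. Deprivation gave -0.07 ± 0.06 in VHL cells (95% interval -0.20 to 0.05, limma adjusted p = 0.456) and 0.05 ± 0.06 in Vec cells (-0.07 to 0.17, limma adjusted p = 0.728). VHL cells exceeded Vec cells by 0.41 ± 0.06 in deprived medium (limma adjusted p = 4.40e-05) and by 0.53 ± 0.06 in control medium, or 1.44-fold (limma adjusted p = 3.82e-06). Its second, dimmer probe set gave 0.56 and 0.51 for the same differences between the lines. On deprivation that probe set gave 0.12 in VHL cells, opposite in sign to the main one, and 0.07 in Vec cells. Neither was called (limma adjusted p = 0.240 and 0.661 over all probe sets).

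**Figure D2:**
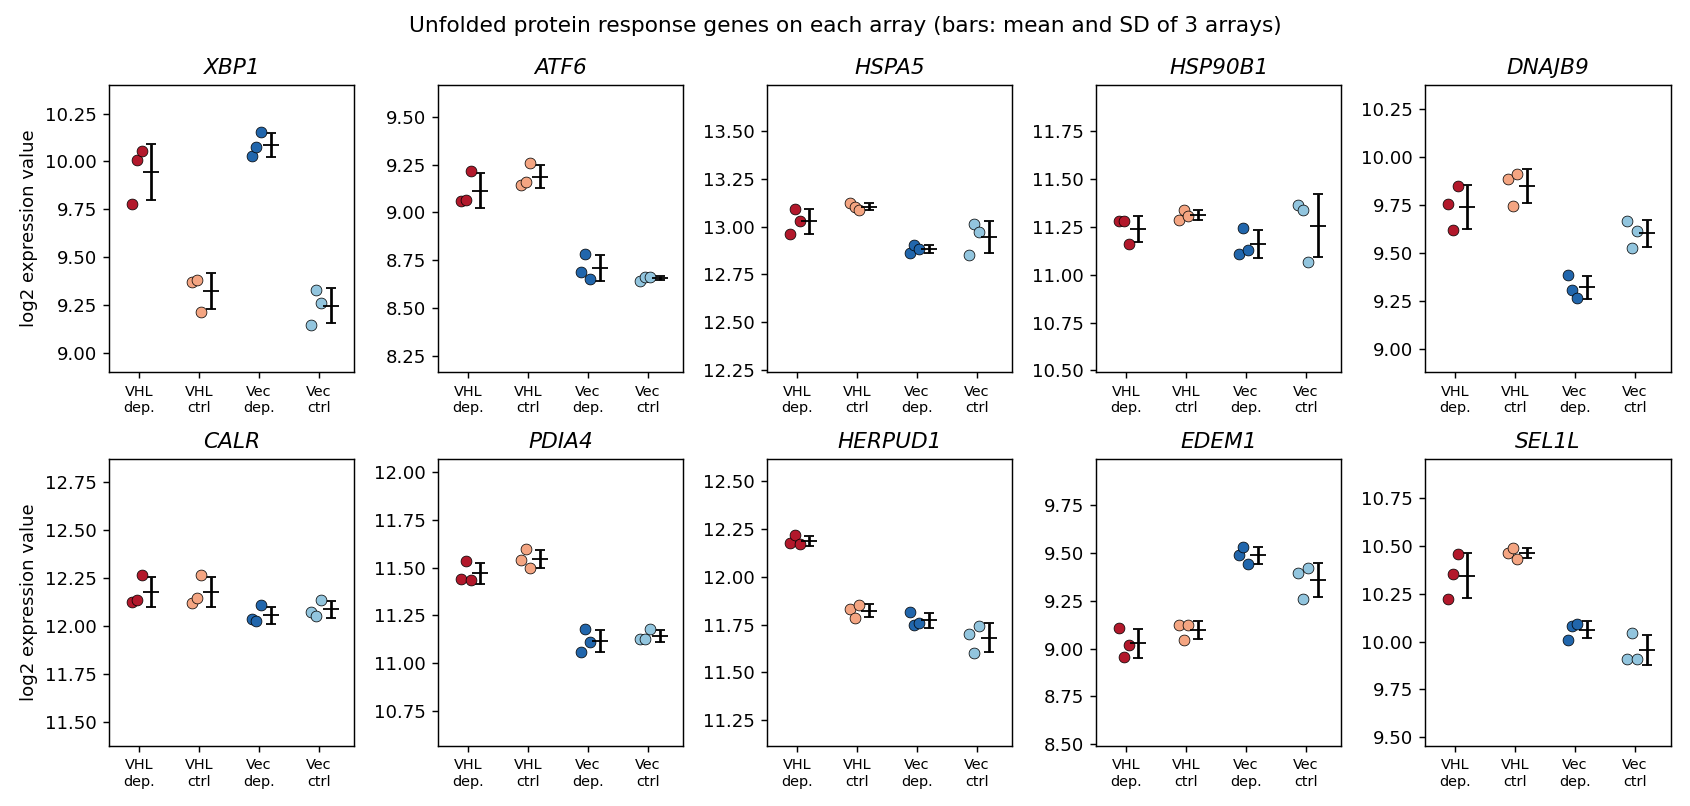
Log2 expression values of the 10 genes on each of the 12 arrays, with the mean and SD of 3 arrays beside the points; every panel spans the same log2 range, centred on the gene's mean. XBP1 separates by medium in both lines, HERPUD1 stands out in VHL deprived cells at 12.19 ± 0.03, and ATF6, PDIA4, SEL1L and EDEM1 separate by line.

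HSPA5, also called BiP, is the ER member of the HSP70 chaperones and holds the stress sensors inactive until unfolded proteins draw it away. It read 12.96, 13.09 and 13.03 in VHL deprived and 13.12, 13.10 and 13.09 in VHL control cells. In Vec cells it read 12.86, 12.90 and 12.89 deprived and 12.85, 13.01 and 12.97 control. Deprived and control ranges overlapped in both lines, and the highest array of each line was a control one. The log2 difference was -0.08 ± 0.05 in VHL cells (95% interval -0.19 to 0.04, limma adjusted p = 0.378) and -0.06 ± 0.05 in Vec cells (-0.18 to 0.05, limma adjusted p = 0.613), so neither interval reaches above a rise of 0.05 on the log2 scale. That bound rests on the only HSPA5 probe set used. HSPA5 lay between percentiles 98.5 and 98.9 of all genes on the arrays, and whether signals so bright still rise in proportion was not tested.

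The other folding genes behaved likewise toward the medium. HSP90B1, the ER member of the HSP90 chaperones also known as GRP94, averaged 11.24 ± 0.07 in VHL deprived and 11.31 ± 0.03 in VHL control cells, and 11.16 ± 0.07 in Vec deprived and 11.26 ± 0.17 in Vec control cells (SD, n = 3 each). CALR, a calcium-binding chaperone of glycoproteins, averaged 12.18 ± 0.08 in VHL deprived and 12.18 ± 0.08 in VHL control cells, and 12.06 ± 0.04 in Vec deprived and 12.09 ± 0.05 in Vec control cells. Neither gene was called in either line, with limma adjusted p-values from 0.578 to 0.994. The second HSP90B1 probe set, also of the _x_at type, gave -0.12 in VHL and 0.07 in Vec cells, and the other 2 CALR probe sets gave -0.22 and -0.15 in VHL cells and -0.05 and -0.08 in Vec cells, all uncalled. PDIA4, a protein disulfide isomerase that forms and reshuffles disulfide bonds, gave -0.07 ± 0.05 in VHL cells (limma adjusted p = 0.372) and -0.03 ± 0.05 in Vec cells (0.851).

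DNAJB9, or ERdj4, is an HSP70 co-chaperone of the ER that also restrains IRE1. It read 9.75, 9.62 and 9.85 in VHL deprived and 9.89, 9.75 and 9.92 in VHL control cells, ranges that overlap. It read 9.39, 9.31 and 9.26 in Vec deprived and 9.67, 9.53 and 9.61 in Vec control cells, ranges that do not. The fall in Vec cells was -0.28 ± 0.07 (limma adjusted p = 0.0367), while VHL cells gave -0.11 ± 0.07 (limma adjusted p = 0.339), and the difference between the responses was not called (0.17 ± 0.10, limma adjusted p = 0.569). The call in Vec cells was near the threshold: it was lost without any 1 of the 6 Vec arrays (adjusted p from 0.0509 to 0.133), and the second DNAJB9 probe set gave -0.23 (adjusted p = 0.175 over all probe sets).

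HERPUD1 is an ER membrane protein that organises the degradation of misfolded ER proteins. It read 12.17, 12.22 and 12.17 in VHL deprived and 11.83, 11.79 and 11.85 in VHL control cells. In Vec cells it read 11.82, 11.75 and 11.76 deprived and 11.70, 11.60 and 11.74 control. All 3 VHL deprived arrays stood above the other 9, and in Vec cells the deprived arrays were just above their controls. The log2 difference was 0.37 ± 0.05 in VHL cells (limma adjusted p = 4.23e-04) and 0.09 ± 0.05 in Vec cells (95% interval -0.01 to 0.20, limma adjusted p = 0.386). The difference between these responses was 0.27 ± 0.07, with an unadjusted p of 0.00161 and a limma adjusted p of 0.225, so it was not called among all genes. With a variance trend and robust moderation the same difference was called (adjusted p = 0.0262).

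EDEM1, a mannosidase-like protein that directs misfolded glycoproteins to degradation, and SEL1L, the partner of the ubiquitin ligase HRD1 in that pathway, were not called in either line. EDEM1 gave -0.07 ± 0.06 in VHL cells (limma adjusted p = 0.484) and 0.13 ± 0.06 in Vec cells (0.279). SEL1L gave -0.12 ± 0.06 in VHL cells (limma adjusted p = 0.252) and 0.11 ± 0.06 in Vec cells (0.435). For both genes the estimates had opposite signs in the lines, with VHL minus Vec responses of -0.20 ± 0.08 for EDEM1 and -0.22 ± 0.09 for SEL1L. The 3 other SEL1L probe sets did not share these signs throughout: 1 of them gave 0.17 in VHL and -0.15 in Vec cells, also uncalled. In this comparison of responses limma called 0 of the 10 genes, while 3 (HERPUD1, EDEM1 and SEL1L) had an unadjusted p under 0.05. Over all genes 0.134% were called, 0.125% with a higher and 0.00836% with a lower response in VHL cells.

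**Figure D3:**
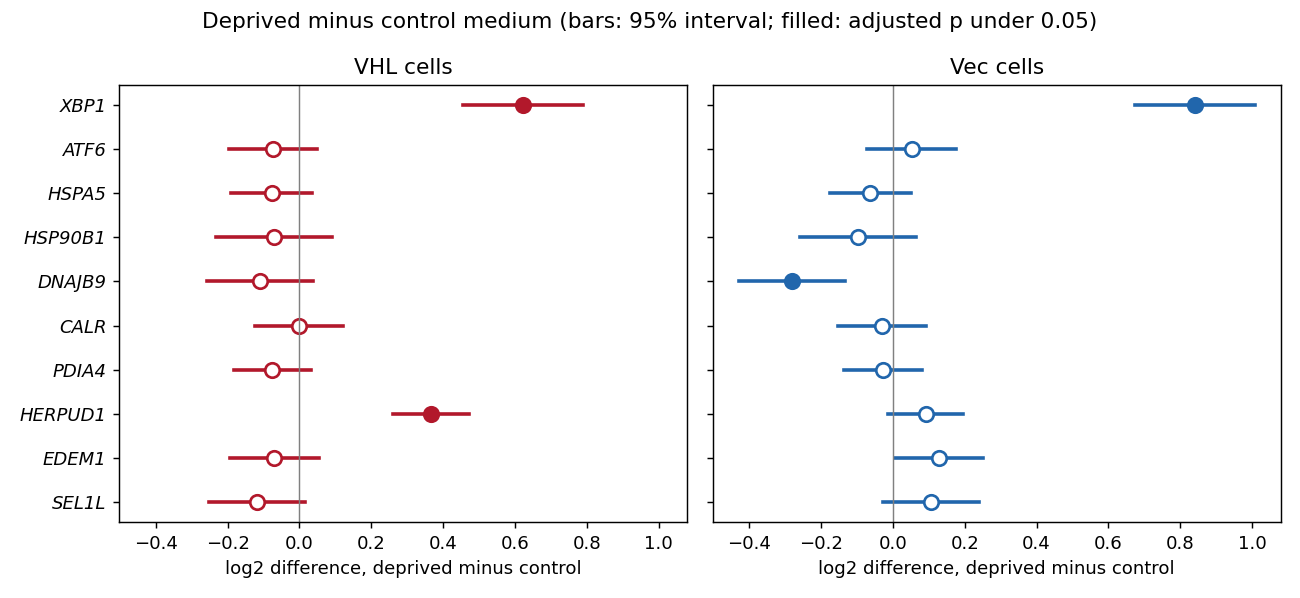
Log2 difference between deprived and control medium for the 10 genes in VHL cells (left) and Vec cells (right), with 95% intervals; filled points have an adjusted p under 0.05. XBP1 lies to the right in both panels, at 0.62 and 0.84, HERPUD1 is filled in VHL cells at 0.37 and DNAJB9 in Vec cells at -0.28, and the open points lie between -0.12 and 0.13.

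Groups whose arrays do not overlap were common on these arrays and are therefore a weak sign. In VHL cells 3 of the 10 genes had deprived and control arrays that did not overlap (XBP1, HERPUD1 and, by a margin under 0.01, HSP90B1), against 30.6% of all genes. In Vec cells there were 4 (XBP1, DNAJB9, HERPUD1 and EDEM1), against 22.7%.

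The larger differences of most of these genes lay between the lines. In deprived medium 7 of 10 genes were called between VHL and Vec cells, 6 higher and 1 lower, and in control medium again 6 higher and 1 lower. Differences between the lines were widespread, with 47.2% of all genes called in deprived medium (24.2% higher and 23.0% lower) and 46.1% in control medium (23.1% higher and 23.0% lower). The median log2 difference of the 10 genes was 0.21 in deprived and 0.15 in control medium, beside 0.00 over all genes in both. The arrays of the lines did not overlap for 8 of the 10 genes in deprived medium, against 54.2% of all genes, and for 7 in control medium, against 53.2%.

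The 6 genes higher in VHL cells were ATF6, HSPA5, DNAJB9, PDIA4, HERPUD1 and SEL1L. PDIA4 read 11.44, 11.54 and 11.44 in VHL deprived against 11.06, 11.18 and 11.11 in Vec deprived cells, and 11.54, 11.60 and 11.50 in VHL control against 11.13, 11.13 and 11.18 in Vec control cells. Every VHL array was above every Vec array. PDIA4 was higher by 0.35 ± 0.05 in deprived (limma adjusted p = 4.77e-05) and 0.40 ± 0.05 in control medium (limma adjusted p = 1.57e-05). Its other probe set gave much less, 0.12 in deprived and 0.06 in control medium (adjusted p = 0.0451 and 0.372 over all probe sets).

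SEL1L read 10.22, 10.35 and 10.46 in VHL deprived against 10.01, 10.08 and 10.09 in Vec deprived cells, and 10.46, 10.49 and 10.43 in VHL control against 9.91, 10.05 and 9.91 in Vec control cells. Here too every VHL array was above every Vec array. It was higher by 0.28 ± 0.06 in deprived (limma adjusted p = 0.00177) and 0.51 ± 0.06 in control medium (limma adjusted p = 1.35e-05). Its 3 other probe sets, all dimmer, gave positive differences too, from 0.23 to 0.50 in deprived and from 0.17 to 0.50 in control medium. DNAJB9 was higher by 0.42 ± 0.07 in deprived (limma adjusted p = 1.63e-04) and 0.25 ± 0.07 in control medium (limma adjusted p = 0.00848).

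HERPUD1 was higher in VHL cells by 0.42 ± 0.05 in deprived medium (limma adjusted p = 8.82e-06) and by 0.14 ± 0.05 in control medium (limma adjusted p = 0.0296). HSPA5 was higher by 0.14 ± 0.05 in deprived (limma adjusted p = 0.0366) and 0.16 ± 0.05 in control medium (limma adjusted p = 0.0237), or 1.10-fold and 1.12-fold. These small differences lay near the threshold, and their calls, more than their sizes, moved with the setting. Quantile normalization gave HSPA5 0.13 and 0.12 and HERPUD1 0.13, and ended both HSPA5 calls (adjusted p = 0.0523 and 0.0742) and the HERPUD1 call in control medium (0.0547), and so did a fit of the compared groups alone for HSPA5 in deprived (0.0523) and HERPUD1 in control medium (0.0703), with the differences unchanged at 0.14 each. HSPA5 was not called in deprived medium without VHL deprived replicate 2 or 3 or any Vec deprived array, nor in control medium without VHL control replicate 1 or 2 or Vec control replicate 1, and HERPUD1 in control medium was lost without VHL control replicate 1 or 3 or Vec control replicate 2.

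EDEM1 was the 1 gene of the set that was lower in VHL cells. It read 9.11, 8.96 and 9.02 in VHL deprived against 9.49, 9.53 and 9.44 in Vec deprived cells, and 9.12, 9.04 and 9.12 in VHL control against 9.40, 9.26 and 9.42 in Vec control cells. All VHL arrays were below all Vec arrays. The difference was -0.46 ± 0.06 in deprived (limma adjusted p = 1.51e-05) and -0.26 ± 0.06 in control medium (limma adjusted p = 0.00173). XBP1, HSP90B1 and CALR were not called between the lines in either medium. CALR was higher in VHL cells by 0.12 ± 0.06 in deprived (limma adjusted p = 0.0999) and 0.09 ± 0.06 in control medium (0.221) on its main probe set, of the _x_at type, while its probe set without that suffix gave 0.23 and 0.30 (adjusted p = 0.00445 and 6.07e-04 over all probe sets) and the remaining one -0.03 and 0.14, uncalled.

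**Figure D4:**
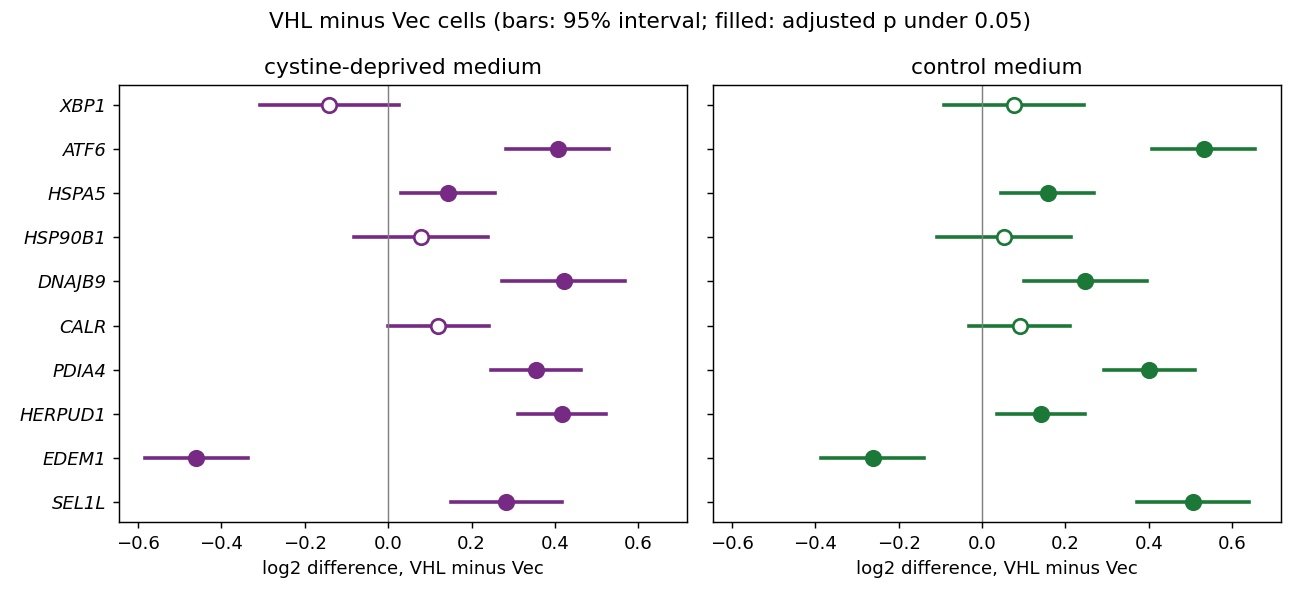
Log2 difference between VHL and Vec cells for the 10 genes in deprived (left) and control medium (right), with 95% intervals; filled points have an adjusted p under 0.05. In each medium 6 genes are filled to the right of 0 and EDEM1 to the left, at -0.46 and -0.26, while XBP1, HSP90B1 and CALR are open.

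Genes of the same branches outside the set were read from lists and are to be set beside the 11.6% of all genes called in VHL and 4.18% in Vec cells. From 4 lists of ER genes 72 of 87 genes were measured. In VHL cells 5 of the 72 rose and 6 fell on deprivation, and in Vec cells 2 rose and 1 fell, with medians of -0.01 in each line. The counts depended on single arrays: in VHL cells 11 calls became 5 without VHL deprived replicate 1, 4 without VHL control replicate 1 and 6 without VHL control replicate 2, while the 1392 calls over all genes became 822, 764 and 849 in the same fits. In Vec cells 3 calls became 1 without Vec deprived replicate 2 or Vec control replicate 1, while the 500 calls over all genes became 262 and 253. Between the lines 27 of the 72 were higher in VHL cells and 22 lower in deprived medium, and 29 and 21 in control medium, beside 47.2% of all genes called in deprived medium (24.2% higher, 23.0% lower) and 46.1% in control medium (23.1% higher, 23.0% lower).

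Of 18 ER chaperones and folding enzymes, 4 rose and 1 fell in VHL cells and 2 rose and 1 fell in Vec cells. HSPA13, an ER-associated HSP70-like protein, rose by 0.63 ± 0.07 in VHL cells (limma adjusted p = 5.61e-05) and by 0.63 ± 0.07 in Vec cells (9.95e-05). ERP29, a luminal chaperone, rose by 0.29 ± 0.05 and 0.20 ± 0.05 in VHL and Vec cells. The other genes called in VHL cells were SIL1, the nucleotide exchange factor of HSPA5, at 0.27, P4HB, the founding protein disulfide isomerase, at 0.16, and MANF, a secreted ER stress protein, at -0.21. SDF2L1, a partner of ER chaperones, fell in Vec cells by 0.38 on the log2 scale (limma adjusted p = 0.0168).

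Of 16 ER-associated degradation genes 1 rose and 1 fell in VHL cells: RNF139, an ER ubiquitin ligase, at 0.17, and EDEM3, a mannosidase, at -0.53. In Vec cells limma called 0 of these 16, with 2 at an unadjusted p under 0.05. Of 22 genes of translocation into the ER and vesicle traffic 4 fell and none rose in VHL cells, namely SEC24D, a vesicle coat protein, at -0.65, ARFGAP3 at -0.31, SSR1, a translocon-associated protein, at -0.25 and SPCS3, a signal peptidase subunit, at -0.20. In Vec cells limma called 0 of the 22, with 2 at an unadjusted p under 0.05. Of 16 sensors, proteases and partners of ATF6 and IRE1, limma called 0 in either line, with 6 in VHL and 5 in Vec cells at an unadjusted p under 0.05, and their medians were 0.02 and 0.07. Between the lines CREB3L2, an ATF6-related membrane-bound transcription factor, was higher in VHL cells by 1.33 ± 0.05 in deprived and 1.28 ± 0.05 in control medium. MBTPS1, the site-1 protease that cuts ATF6, was higher by 0.35 ± 0.04 in each medium, and NFYB, a subunit of NF-Y, was lower, at -0.48 ± 0.06 and -0.57 ± 0.06.

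The other lists also held called differences of both signs between the lines. Among the folding genes ERP29 was higher in VHL cells by 0.69 ± 0.05 in deprived and 0.60 ± 0.05 in control medium, HYOU1, a large HSP70-like chaperone, by 0.57 ± 0.04 and 0.54 ± 0.04, and MANF was lower, at -0.69 ± 0.05 and -0.64 ± 0.05. KDELR3, a receptor that returns ER proteins from the Golgi, was higher by 0.68 ± 0.04 in each medium, and TRAM1, a translocon partner, by 0.60 ± 0.04 in deprived and 0.52 ± 0.04 in control medium. SSR2, a translocon-associated protein, was higher by 0.66 in deprived and 0.57 in control medium. SEC62, a translocation factor, was higher by 0.59 in deprived and 0.65 in control medium. Among the degradation genes UBE2G2, a ubiquitin-conjugating enzyme, was lower in VHL cells, at -0.54 ± 0.05 in deprived and -0.47 ± 0.05 in control medium. UBE2J1, also a ubiquitin-conjugating enzyme, gave -0.51 in deprived and -0.44 in control medium. VCP, the ATPase that pulls proteins out of the ER membrane, gave -0.39 in each medium. EDEM2 gave 0.40 in deprived and 0.48 in control medium, and DERL1, a channel component, -0.36 and -0.48.

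On the same arrays the genes listed under the PERK and ATF4 branch moved much more. PERK activity was not measured, and what raised these transcripts was not tested. Of 10 listed genes 9 were measured, without SESN2. Of these 9 genes 8 rose and 1 fell in VHL cells, with a median of 1.21, and 7 rose in Vec cells, with a median of 0.82. The shares of all genes called higher were 6.16% in VHL and 2.11% in Vec cells. ASNS, asparagine synthetase, rose by 1.55 ± 0.05 in VHL and 1.48 ± 0.05 in Vec cells, and CHAC1, an enzyme that degrades glutathione, by 2.52 ± 0.10 and 2.68 ± 0.10. DDIT3, the transcription factor CHOP, rose by 1.54 ± 0.06 in VHL and 0.93 ± 0.06 in Vec cells, and EIF2AK3, the sensor PERK itself, was the gene that fell, at -0.31 ± 0.06 in VHL cells. Of 15 listed chaperones of the cytosol and mitochondria 12 were measured, without HSPA1A, HSPA1B and HSPA8. Most went the other way: 8 of 12 fell in VHL cells (median -0.30) and 7 of 12 in Vec cells (median -0.22), and none rose. Over all genes 5.48% were called lower in VHL and 2.06% in Vec cells. Of the mitochondrial chaperones HSPE1 fell, at -0.43 in VHL and -0.29 in Vec cells. HSPA9 (0.02 and 0.15) and HSPD1 (-0.06 and -0.06) were not called. CHORDC1, an HSP90 partner, gave -0.83 ± 0.07 in VHL and -0.58 ± 0.07 in Vec cells, and DNAJB1, an HSP70 co-chaperone, -0.64 ± 0.06 and -0.43 ± 0.06. The difference between these lists and the 10 genes was not tested.

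**Figure D5:**
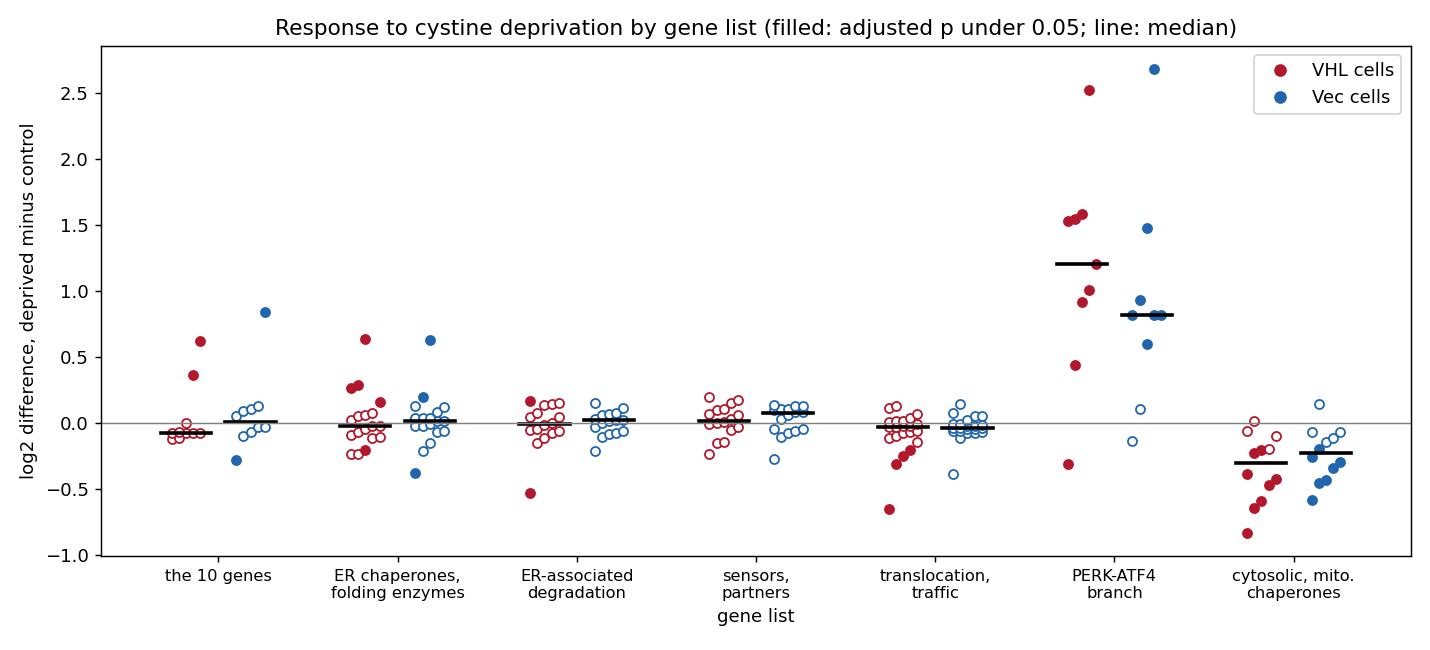
Log2 difference between deprived and control medium for each measured gene of 7 lists, in VHL cells (red) and Vec cells (blue); filled points have an adjusted p under 0.05 and black lines are medians. The 10 genes and the 4 ER lists centre near 0, the PERK and ATF4 branch lies mostly above 0 (medians 1.21 and 0.82) and the chaperones of the cytosol and mitochondria mostly below it (medians -0.30 and -0.22).

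The promoter elements shown above did not go with a common response. Of 28 measured genes whose windows hold an ERSE or ERSE-II, 5 are among the 10 genes, and of these XBP1 rose in both lines, HERPUD1 in VHL cells, and HSPA5, HSP90B1 and CALR in neither. Among the other 23 genes 2 were called in VHL cells, both lower (CAMTA1 at -0.72 and SHCBP1 at -0.41), and 2 in Vec cells, both lower (CAMTA1 at -0.65 and SDF2L1 at -0.38). With so few genes these counts are not set apart from the 11.6% and 4.18% of all genes called in VHL and Vec cells. The other 23 genes include CANX, PDIA6, HYOU1 and CRELD2, ER chaperones or stress proteins, whose differences ran from -0.02 to 0.08 in VHL cells and from -0.01 to 0.04 in Vec cells. Further ER genes among the 23 lay lower in VHL cells: SDF2L1 at -0.09, ERO1B at -0.07 and SERP1 at -0.07, all uncalled. In Vec cells ERO1B gave -0.07 and SERP1 -0.02, also uncalled.

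The genes with the most similar values over the 12 arrays were found for the 5 genes whose group means spanned 0.5 or more on the log2 scale, by the root mean square difference of values centred on each gene's mean. Nearest to XBP1 were HSPA13, at 0.102, HSPBAP1, at 0.106, and SLC3A2, the heavy chain of amino acid exchangers including the cystine transporter, at 0.117. SLC3A2 gave log2 differences of 0.61 in VHL and 0.64 in Vec cells. Nearest to HERPUD1 were H1-10, a linker histone, at 0.0411, DDB2, a DNA repair protein, at 0.0589 and COQ6, an enzyme of ubiquinone synthesis, at 0.0601. H1-10 gave 0.37 in VHL and 0.09 in Vec cells, the same to 2 decimals as HERPUD1. Nearest to ATF6 were MVP, RPA3 and TRIOBP (0.0456 to 0.0556), to DNAJB9 HMCES, C1GALT1C1 and CUX1 (0.0597 to 0.0745), and to SEL1L SCFD1, ME2 and NDUFS4 (0.0431 to 0.0579).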

How the data were processed

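Single-colour Affymetrix arrays were read for 12 samples, with biotin-labelled targets made from total RNA, per the labels. The deposited values are log2 expression values for 22215 probe sets. That they are on a log2 scale was judged from their range, and the authors' normalization is not given in the sources used here, so values were used as deposited with no filter. Of the probe sets 19064 named 1 gene, 1043 several and 2108 none. Symbols were updated through RefSeq (GRCh38.p14) for 19052.

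One mean per group was fitted in limma 3.58.1 (R 4.3.3) over all 12 arrays, with 8 residual degrees of freedom. All p-values are two-sided, and adjusted ones are over the 11963 genes unless the sentence names all probe sets or another setting; errors after ± are standard errors unless given as SD. The fit was run on simulated data with independent noise for each gene and array and changes planted in the VHL deprived group alone. That run does not cover effects shared by a whole array or technical replication. No batch is named in the labels. The number of arrays limits the precision, and detection calls were not used.

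The members and lists were chosen with earlier results of these data known. Named genes were all 10 members, up to 3 called genes per list and comparison by smallest adjusted p (P4HB, SIL1 and ARFGAP3 complete short counts and were named after their values were seen, as were EIF2AK3, the mitochondrial chaperones and the genes with promoter elements), and the 3 nearest genes of members spanning 0.5.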

Additional observations from a re-analysis of the deposited data

Results flagged for a closer look

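Among the genes named, 3 had responses to deprivation that differed between the lines by the test of the difference itself (limma adjusted p, VHL minus Vec), all of the PERK and ATF4 branch and none among the 10 genes. The naming rule took called genes of each list from this same comparison, so the count follows from the test and is no separate support. Over all genes 16 of 11963, or 0.134%, were called. ATF3, a stress transcription factor, rose more in VHL cells by 0.76 ± 0.10 on the log2 scale, with responses of 1.58 in VHL and 0.82 in Vec cells (limma adjusted p = 0.00523). DDIT3 rose more by 0.60 ± 0.08 (limma adjusted p = 0.0100). ATF4 rose more by 0.33 ± 0.06, with responses of 0.44 in VHL and 0.11 in Vec cells (limma adjusted p = 0.0416). A larger rise was not always a higher level. VHL minus Vec was -1.40 ± 0.07 in control and -0.63 ± 0.07 in deprived medium for ATF3. For ATF4 it was -0.72 ± 0.04 and -0.39 ± 0.04, and for DDIT3 -0.42 ± 0.06 and 0.18 ± 0.06, all called. Outlying arrays were not tested for within the groups of 3.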

How the results depend on the processing

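For the 10 genes, 411 of 425 log2 differences under alternatives other than leaving out an array kept their call or lack of one, 8 lost a call and 6 gained one, and no call turned its direction. XBP1 kept its rise in both lines in every alternative run. With _x_at and _s_at probe sets left out, HSP90B1, HERPUD1 and SEL1L had no value, members called on deprivation numbered 1 in each line, other ER genes 6 in VHL and 1 in Vec cells, and 28 and 24 between the lines in deprived and control medium, and all genes 771 in VHL cells, 233 in Vec cells, 3505 between the lines in deprived and 3427 in control medium; fewer genes were tested. A variance trend with robust moderation gave 17 and 5 other ER genes in VHL and Vec cells, and in the comparison of responses 1 of the 10 genes and 45 of all genes. Fitting the compared groups alone gave 6 other ER genes in VHL cells and 835 and 311 of all genes in VHL and Vec cells. The labels share replicate numbers, but same-numbered arrays of different groups correlated at -0.268 to 0.235 in their residuals, so they were not taken as pairs; a replicate block gave 7 other ER genes in VHL cells, and CALR was called between the lines in deprived medium (adjusted p = 0.0371). With one array left out, members called in Vec cells numbered 1 to 2, other ER genes 4 to 11 in VHL and 1 to 3 in Vec cells, and all genes 764 to 1396 in VHL cells (lowest without VHL control replicate 1, with 822 without VHL deprived replicate 1 and 849 without VHL control replicate 2) and 253 to 503 in Vec cells, where leaving out any Vec array gave at most 303. Arrays centred on their medians gave 550 genes higher and 873 lower in VHL cells, against 737 and 655 as deposited. Background correction and slide or scan blocks were not run, since the deposited values do not allow them. Unless stated, the cause was not tested. With no detection calls, the lower limit of signal is unknown here.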
